A study of Mus musculus with 41 samples.

Results

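The mRNA of primary mouse embryonic fibroblasts (MEFs) that had lost Pelo was compared with that of control MEFs. The comparison rests on 5 of the 41 libraries of the series and of its 11 MEF RNA libraries, chosen by their labels as the RNA libraries of Pelo-/- cells (n = 2) and of control cells (n = 3). Read counts that kallisto estimated for 142552 transcripts were summed to 55385 genes. The series as a whole profiled ribosomes and mRNA in mouse embryos, cerebella and MEFs that lacked the ribosome rescue factors Hbs1l or Pelo, or Upf2, a factor of nonsense-mediated decay.

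Both groups were of the C57BL/6 strain and carried the CAG-Cre/Esr1 transgene, which expresses a tamoxifen-dependent Cre recombinase in nearly all cells, together with the B6J allele of the neuronal tRNA gene n-Tr20. Control cells had no floxed gene (CAG-Cre ER in the labels). Pelo-/- cells (CAG-Cre ER; Pelo cKO) were also homozygous for a Pelo allele with loxP sites around exon 2. Cells of both genotypes were made from embryos at E13, were treated with 1 μM 4-hydroxytamoxifen for 48 hr, reseeded and collected 48 hr later. Each library was a 10 cm dish of cells from 1 embryo. The submitters left out another Pelo-/- RNA replicate, and it was not analysed here. All RNA libraries carry the label Batch 6.

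PELO and its GTPase partner HBS1L bind ribosomes whose A site is empty, for example at the broken end of an mRNA. Together with the ATPase ABCE1 they split the stalled ribosome into its subunits, so that these can initiate again. The complex is the mammalian counterpart of yeast Dom34 and Hbs1 and is best known from no-go and non-stop mRNA decay, in which the faulty mRNA is destroyed.

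The targeted gene was examined first. Pelo (ENSMUSG00000042275, chromosome 13, 115088355 to 115090186 on the minus strand of GRCm38 in the Gencode M21 annotation) has 2 exons, of which exon 2 (115088355 to 115088961) holds 429 bases of coding sequence and exon 1 holds 726. Its level, as CPM (counts scaled to a common library size with TMM factors), was 0.549 and 0.0867 in Pelo-/- cells and 23.4, 23.9 and 24.7 in control cells. The estimated counts behind the Pelo-/- values were 15.2 and 2.3, and the log2 fold change was -6.15 (SE 0.36, adjusted p = 0.000399). Here and below, adjusted p-values are from the quasi-likelihood test of edgeR, adjusted by the Benjamini-Hochberg method over all genes tested, and a gene is said to rise or fall where this value is at most 0.05. Pelo lies within the first intron of Itga1 (114953096 to 115101964, same strand), which encodes an integrin subunit. The Itga1 level was 11.5 and 10.7 CPM in Pelo-/- cells and 16.4, 14.1 and 11.6 in control cells (log2 fold change -0.32, SE 0.16, adjusted p = 0.16). Hbs1l had 73.7 and 88.4 CPM against 71, 77.3 and 79.7, so that the groups overlapped (log2 fold change 0.091, SE 0.10, adjusted p = 0.523).

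**Figure D1:**
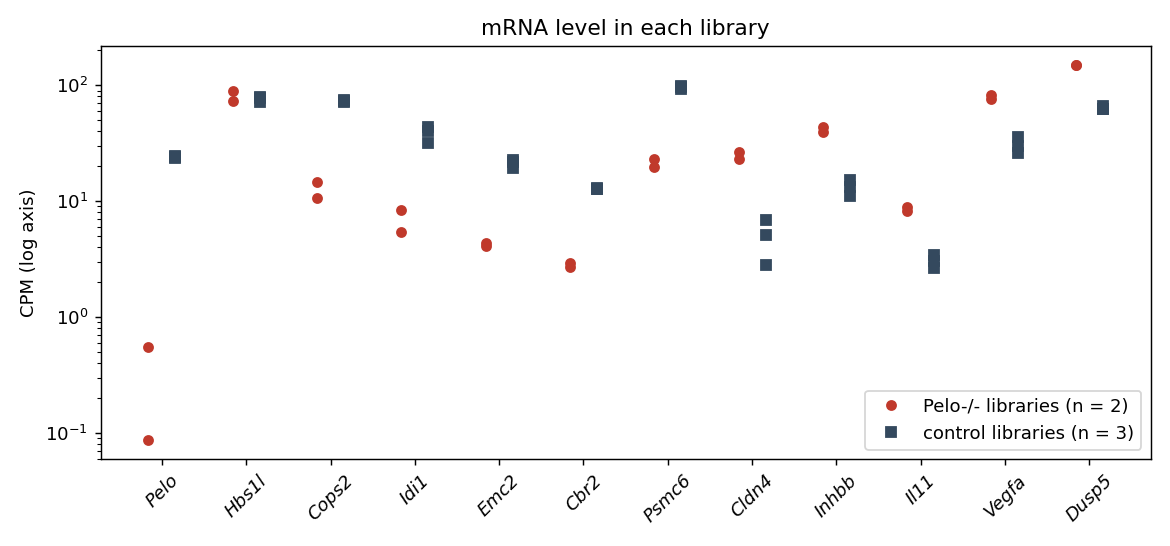
The level of 12 genes in each library, as CPM on a log axis, with Pelo-/- libraries as circles and control libraries as squares. Pelo lies at 0.549 and 0.0867 CPM in the Pelo-/- libraries, Hbs1l overlaps between the groups, and the other genes are among those named by size or adjusted p.

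The libraries held 22713643 to 77329534 estimated counts in control cells, and 26829522 and 23166888 in Pelo-/- cells. Each group held embryos of both sexes: Xist was at 31.9 to 74.6 CPM in Pelo-/- library 2 and control libraries 1 and 2, and Ddx3y at 11.3 and 29.1 CPM in Pelo-/- library 1 and control library 3. Of 12 fibroblast markers, 12 were tested, with summed levels of 20024 and 20751 CPM in Pelo-/- cells and 12025 to 15092 in control cells. These and the other sums here are scaled over the 11 RNA libraries. Of the 12 markers, Fn1 and Col1a1 rose and 0 fell, a share of rises close to the 15.5% of all genes tested. Of 9 epithelial markers, 5 were tested and 3 rose, namely Cldn4, Krt8 and Krt18, with a summed level of 208 and 196 CPM against 151 to 166. Of 10 neural and glial markers, 7 were tested, Dcx, Fabp7 and Tubb3 fell and Sox10 rose, and the summed level was 59.9 and 57.8 CPM, below that of each control library (up to 131 CPM). The 10 macrophage and blood cell markers gave 104 and 67.2 against 54.7 to 89.6 CPM, and no call (1 at an unadjusted p below 0.05, 1 with DESeq2). Erythroid markers were near 0, with Hbb-bs, Hbb-bt, Hba-a2, Hbb-y and Slc4a1 at 0 in all 5 libraries. Of the endothelial, cartilage, pericyte and mesothelial markers, those called were Kdr, Sox9, Cspg4, Mcam, Lrrn4 and Msln (higher) and Rgs5 (lower). The markers tested were 7 endothelial, 8 cartilage, 6 pericyte and 4 mesothelial. The endothelial and cartilage shares of rises were close to the 15.5% of all genes tested. Without Pelo-/- library 1 or 2, 1 or 2 epithelial, 1 or 0 pericyte and 0 endothelial or mesothelial markers rose, 1 fibroblast marker rose (and 1 fell without library 1), and 1 or 2 neural and glial markers fell. Fewer cells of a type and less RNA per cell cannot be told apart in these bulk samples, and the part of these shifts in the results below was not tested.

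Of 14705 genes that passed the filter on low counts, 4727 (32.1%) differed between Pelo-/- and control cells at an adjusted p of at most 0.05. Of these, 2283 (15.5% of the genes tested) were upregulated and 2444 (16.6%) were downregulated. These shares belong to the fit of all 5 libraries. They were lower over all genes in the fits without 1 Pelo-/- library, so list counts from those fits are not to be set beside them. Groups did not overlap for 31.3% of all genes tested with Pelo-/- cells higher and for 31% with Pelo-/- cells lower. Among the calls, 203 genes rose and 811 fell by at least 1 on the log2 scale, and the median over all genes was -0.014. The count rests on both Pelo-/- libraries: without Pelo-/- library 1 it was 1743 and without library 2 it was 1506, each with a lone Pelo-/- library that is assumed to vary like the controls.

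The change in a gene's mRNA moved with the base composition and the length of its transcripts. Among 13132 protein-coding genes, the 1314 with the lowest GC content (median 40.9%) had a median log2 fold change of -0.81. In this group 61.3% of genes fell and 1.29% rose. In the fifth decile (median GC content 49.9%) the median was 0.15, 8.3% fell and 25.4% rose. For length, the median was -0.34 in the shortest decile (852 bases) and 0.25 in the longest (6302 bases). By library, the longest decile was at 0.24 and 0.22 in Pelo-/- libraries 1 and 2 and at -0.17, 0.19 and -0.018 in control libraries 1, 2 and 3, so that control library 2 lay close to the Pelo-/- libraries. Spearman's rank correlation of the fold change across genes was 0.386 with GC content and 0.312 with length, and genes are not independent replicates.

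The low level of genes poor in GC was seen in each Pelo-/- library. In the decile of lowest GC content, the median log2 ratio to the control mean was -0.59 and -0.80 in Pelo-/- libraries 1 and 2 and -0.036, 0.11 and -0.064 in the control libraries. Of the other RNA libraries of the series, Hbs1l-/- library 1 was at -0.63 and library 3 labelled Upf2 at -0.53, while the other 4 lay between -0.18 and -0.077. The part of GC content and length in the differences was not tested, but most list counts against control RNA are also given from a fit in which a smooth of GC content and length was taken out of each library, called the adjusted fit, which would also take out any real change that follows these properties. The adjusted fit called 3536 genes (24%), 1788 higher (12.2%) and 1748 lower (11.9%). Of the genes that rose in the unadjusted fit, 1160 (50.8%) also rose in the adjusted fit, and of those that fell, 1203 (49.2%) also fell, while 42 were called in opposite directions. Among genes described below, the adjusted fit took Rps24 to -0.72, Eif3e to -0.82, Eif4g1 to 0.29, Zfp598 to 0.27, Upf3b to -0.81, Gas5 to -0.66, Uqcrb to -0.40 and Igf2r to 0.72, all of which still passed. Of the marker calls above, Col1a1, Kdr, Lrrn4, Msln, Dcx, Fabp7 and Sox10 did not pass in the adjusted fit (adjusted p from 0.052 for Msln to 0.322 for Fabp7), and of the neural and glial markers 1 fell without Pelo-/- library 1.

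**Figure D2:**
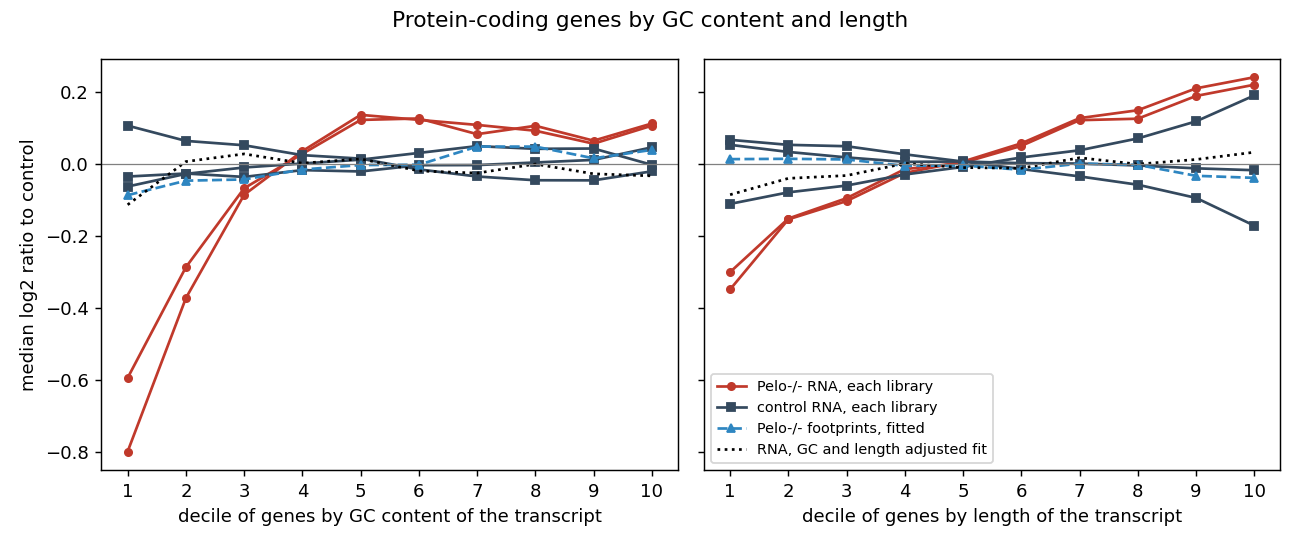
Median log2 ratio to control of protein-coding genes in 10 equal groups (deciles) by GC content (left) and length (right) of their transcripts, for each Pelo-/- library (circles), each control library (squares), the fitted fold change of the footprints of Pelo-/- cells (triangles) and the fold change of the adjusted RNA fit (dotted). Both Pelo-/- RNA libraries fall to -0.59 and -0.80 in the decile of lowest GC content, where the footprints lie at -0.088.

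Ribosomal protein mRNAs were lower. Of 47 proteins of the large (60S) subunit, 47 were tested, 31 fell and 0 rose in edgeR (also 0 at an unadjusted p below 0.05 and 0 with DESeq2), with a median log2 fold change of -0.40. Rpl7 was at 296 and 334 CPM in Pelo-/- cells and 742, 719 and 817 in control cells (log2 fold change -1.27, SE 0.11, adjusted p = 0.000786). Rpl13, which had the highest log2 fold change of the list, was at 1037 and 1096 CPM against 1184, 1130 and 737 (0.069, adjusted p = 0.816). Of 32 proteins of the small (40S) subunit, 32 were tested, 22 fell and 0 rose (0 at an unadjusted p below 0.05 and 0 with DESeq2), with a median of -0.41. Rps24 had 316 and 417 CPM against 795, 770 and 942 (log2 fold change -1.19, SE 0.15, adjusted p = 0.0024). These are short transcripts, with a median of 705 bases for the 60S and 650 for the 40S list, against 2404 over all genes tested. With GC content alone taken out, 38 of the 60S and 28 of the 40S genes fell, and with GC content and length taken out 10 and 8, with medians of -0.13 and -0.16. The counts were 6 and 3 without Pelo-/- library 1, and 9 and 6 without library 2. Many of these genes have processed pseudogenes that can share reads with them.

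Translation factors were lower in part. Of 46 initiation and elongation factors tested of 46 listed, 17 fell and 4 rose, with a median of -0.21, and the share that rose was below the 15.5% of all genes tested. Eif2s2, the beta subunit of eIF2, which brings the initiator tRNA to the ribosome, had 60.4 and 44.8 CPM in Pelo-/- cells and 197, 202 and 217 in control cells (log2 fold change -1.96, SE 0.14, adjusted p = 0.000597). Eif3e (-1.81) and Eif3a (-0.82), subunits of the eIF3 scaffold, also fell. Eif4g1, the scaffold of the cap-binding complex, rose from 568, 695 and 654 to 987 and 1015 CPM (0.65, SE 0.11, adjusted p = 0.00571), and Eif4g3 (0.85), Pabpc1 (0.37) and Pabpc4 (0.29) rose with it. The adjusted fit gave 18 lower and 5 higher, although Pabpc4 did not pass there (adjusted p = 0.681). With Pelo-/- library 1 or 2 left out, the lower count was 11 or 9 and the higher count 1 or 0. Of 56 genes of ribosome biogenesis, 13 rose and 15 fell, against 15.5% and 16.6% of all genes tested. In the adjusted fit 6 rose, a share close to its 12.2% over all genes, and 14 fell, and 0 or 1 rose and 8 fell without Pelo-/- library 1 or 2. Of 78 mitochondrial ribosomal proteins, 24 fell and 0 rose (1 at an unadjusted p below 0.05, 1 with DESeq2), but in the adjusted fit 6 fell and 5 rose, and without Pelo-/- library 1 or 2 it was 8 or 9 that fell.

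The partners of PELO in ribosome rescue were examined as a list of 8 genes, all tested, of which Pelo itself, Abce1, Mcts1 and Denr fell and none rose (1 at an unadjusted p below 0.05, 0 with DESeq2). Abce1 had 47.3 and 32.1 CPM in Pelo-/- cells and 121, 144 and 132 in control cells (log2 fold change -1.73, SE 0.17, adjusted p = 0.00106, and -1.06 with an adjusted p of 0.00112 in the adjusted fit). Mcts1 and Denr encode a pair of proteins that release tRNA from the 40S subunit, and they fell by 1.28 and 0.61 on the log2 scale. Mcts1 was at -0.049 in the adjusted fit. Gtpbp1 and Gtpbp2, GTPases related to HBS1L, had log2 fold changes of 0.23 and 0.15 that did not pass the test.

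Of 24 genes of ribosome-associated quality control, which senses collided ribosomes and degrades their nascent chains, 4 fell and 2 rose, a share of falls close to the 16.6% of all genes tested and a share of rises below the 15.5%. Zfp598, the ubiquitin ligase that recognises collided ribosomes, had 62 and 59.3 CPM in Pelo-/- cells and 39.6, 42.2 and 43.6 in control cells (log2 fold change 0.54, SE 0.082, adjusted p = 0.00421). Usp10, a deubiquitinase of 40S proteins, also rose (0.61). Ascc3, a helicase that pulls collided ribosomes apart (-1.53), Nemf, which binds the 60S subunit that still holds a nascent chain (-1.36), Trip4 (-0.61) and Rack1 (-0.37) fell. All 6 passed in the adjusted fit, where Gigyf2 (-0.34) and Vcp (-0.30) were also lower. Without Pelo-/- library 1, 3 fell and 1 rose, and without library 2, 2 fell and 2 rose. Among 17 tested of 18 genes of the Ski complex and the exosome, 5 fell and 0 rose (2 at an unadjusted p below 0.05, 0 with DESeq2), 4 were lower in the adjusted fit, and 3 or 2 fell without Pelo-/- library 1 or 2.

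Of 16 factors of nonsense-mediated decay (NMD), which degrades mRNAs with premature stop codons, 5 fell and 3 rose, the rises close to the 15.5% of all genes tested and the falls above the 16.6%. Upf2 had 8.31 and 5.29 CPM in Pelo-/- cells and 15.3, 21.5 and 16.5 in control cells (log2 fold change -1.38, SE 0.23, adjusted p = 0.00548). Upf3b fell by 1.52 and Upf1, the helicase of the pathway, rose by 0.57 on the log2 scale. In the adjusted fit 4 fell and 0 rose. Upf2 was among those that fell (-1.07, adjusted p = 0.00395), and Upf1 did not pass (adjusted p = 0.0581). With either Pelo-/- library left out, 3 fell and 1 rose. Gas5, a snoRNA host gene whose RNA is a classical NMD target, fell from 73, 74.4 and 87.9 to 31.6 and 31 CPM (log2 fold change -1.33, adjusted p = 0.000718). Of 18 snoRNA host genes tested of 20 listed, 6 fell and 1 rose, while the adjusted fit called 1 lower and 4 higher, and 2 or 4 fell without Pelo-/- library 1 or 2.

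Subunits of protein and energy machineries were lower as well. Of 32 proteasome subunits, 20 fell and 0 rose (0 at an unadjusted p below 0.05 and 0 with DESeq2), with a median of -0.32. Psmc6, an ATPase of the proteasome's regulatory particle, was at 23.2 and 19.7 CPM in Pelo-/- cells and 93.6, 98 and 96.3 in control cells (log2 fold change -2.16, SE 0.098, adjusted p = 0.000399). In the adjusted fit 12 fell, Psmc6 by 1.19 on the log2 scale, and without Pelo-/- library 1 or 2 it was 7 or 10 subunits. Of 75 nuclear subunits of oxidative phosphorylation, 46 fell and 0 rose (0 at an unadjusted p below 0.05 and 0 with DESeq2), with a median of -0.39. Ndufa5 of complex I (-1.44) and Uqcrb of complex III (-1.50) were among the lowest. Their transcripts had a median length of 693 bases, and in the adjusted fit 24 fell and 2 rose. With Pelo-/- library 1 or 2 left out, 10 or 19 fell.

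The 13 mitochondrially encoded genes moved apart from each other. Here mt-Co1, mt-Nd3, mt-Nd5 and mt-Nd6 rose and mt-Atp6, mt-Atp8 and mt-Co3 fell. For mt-Atp6, a subunit of ATP synthase, 443 and 161 CPM were found in Pelo-/- cells and 1452, 1587 and 1932 in control cells, so that the Pelo-/- libraries also differed from each other. Its log2 fold change was -2.46 (SE 0.41, adjusted p = 0.0054). The GC content of these genes, 37.1% in the median, lies below the median of the lowest decile, and the adjusted fit called 11 of them higher and none lower, with a median of 1.37 against 0.33. There mt-Co3, at -0.70 in the unadjusted fit, was called higher (0.57), so that direction depends on this adjustment. Without Pelo-/- library 1 or 2, 1 or 0 rose and 2 or 3 fell.

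Lysosome genes were higher. Of 53 tested of 53 listed, 29 rose and 0 fell in edgeR (2 at an unadjusted p below 0.05 and 1 with DESeq2 lower), with a median log2 fold change of 0.32 against -0.014 for all genes. Igf2r, the receptor that sorts enzymes tagged with mannose 6-phosphate to lysosomes, had 406 and 434 CPM in Pelo-/- cells and 137, 238 and 196 in control cells (log2 fold change 1.14, SE 0.20, adjusted p = 0.00666). Npc1, which exports cholesterol from lysosomes, had 50.9 and 57.6 CPM against 22.6, 30.4 and 23.9 (1.08, SE 0.14, adjusted p = 0.0024). The protease Ctsb had 424 and 393 CPM against 235, 246 and 230 (0.79, SE 0.08, adjusted p = 0.00114). In each of these genes the lowest Pelo-/- library was above the highest control library. The hydrolases Gaa and Arsb and the membrane protein Lamp1 (0.58) also rose, whereas Tfeb and Tfe3, transcription factors of lysosome genes, had log2 fold changes of 0.021 and 0.17 that did not pass. The adjusted fit gave 27 higher and 1 lower, with a median of 0.31. With either Pelo-/- library left out, 11 rose.

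Many lysosome genes carry an E-box (a CACGTG core) near their start, the site bound by TFEB and its relatives. The palindromic octamer TCACGTGA, which reads alike on both strands, was searched in the RefSeq promoters of GRCm38.p6, from 250 bases before to 50 after each start. It was found in 8 of 50 promoters (16%) of 42 lysosome genes and in 0.974% of all 32851 promoters. Of the promoters of immediate early genes 1 of 30 (3.33%) held it, and of those of cholesterol synthesis 0 of 20. The windows around it are shown for all 8 genes that hold it, whether or not they rose, with the octamer in capitals and 10 bases on each side. The first 5 belong to genes that rose and the last 3 to genes that did not pass the test. Over the whole lysosome list 29 of 53 genes rose, a share close to that of the 8 genes with the octamer.
Igf2r (chr17:12769738-12769765, minus strand): aacgaggacgTCACGTGAgcaggaggcg
Mcoln1 (chr8:3500463-3500490, plus strand): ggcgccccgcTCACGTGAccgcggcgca
Cln3 (chr7:126583341-126583368, minus strand): acgggtactgTCACGTGAcccccaacct
Ctsd (chr7:142387909-142387936, minus strand): cgcccgcgtcTCACGTGAcccgttgagg
Ctsa (chr2:164833750-164833777, plus strand): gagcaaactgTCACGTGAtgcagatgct
Gla (chrX:134601216-134601243, minus strand): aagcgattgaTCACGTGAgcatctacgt
Atp6v0d1 (chr8:105566051-105566078, minus strand): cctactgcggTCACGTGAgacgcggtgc
Atp6v1a (chr16:44139374-44139401, minus strand): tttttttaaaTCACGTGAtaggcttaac

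The log2 fold changes of these 8 genes were 1.14 for Igf2r, 0.53 for Mcoln1, 0.42 for Cln3, 0.32 for Ctsd and 0.32 for Ctsa, and 0.30 for Gla, -0.17 for Atp6v0d1 and -0.26 for Atp6v1a. In the adjusted fit Ctsd did not pass (0.21, adjusted p = 0.0868) and Gla did (0.48, adjusted p = 0.0182). A match of these letters is a description and not a bound site. Of 27 autophagy genes, 8 fell and 3 rose, the rises below the 15.5% of all genes tested. Sqstm1, the cargo receptor p62, rose by 0.40 (adjusted p = 0.0154), while Map1lc3b (-0.41) and Tax1bp1 (-1.63) fell, and all 3 passed in the adjusted fit. The autophagy genes that fell were 2 or 1 without Pelo-/- library 1 or 2, and 0 or 1 rose. Of 34 genes of the mTORC1 pathway, which senses amino acids on lysosomes, 7 rose and 9 fell, against 15.5% and 16.6% of all genes tested (2 and 8 in the adjusted fit), and 1 or 0 rose and 3 fell without Pelo-/- library 1 or 2.

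**Figure D3:**
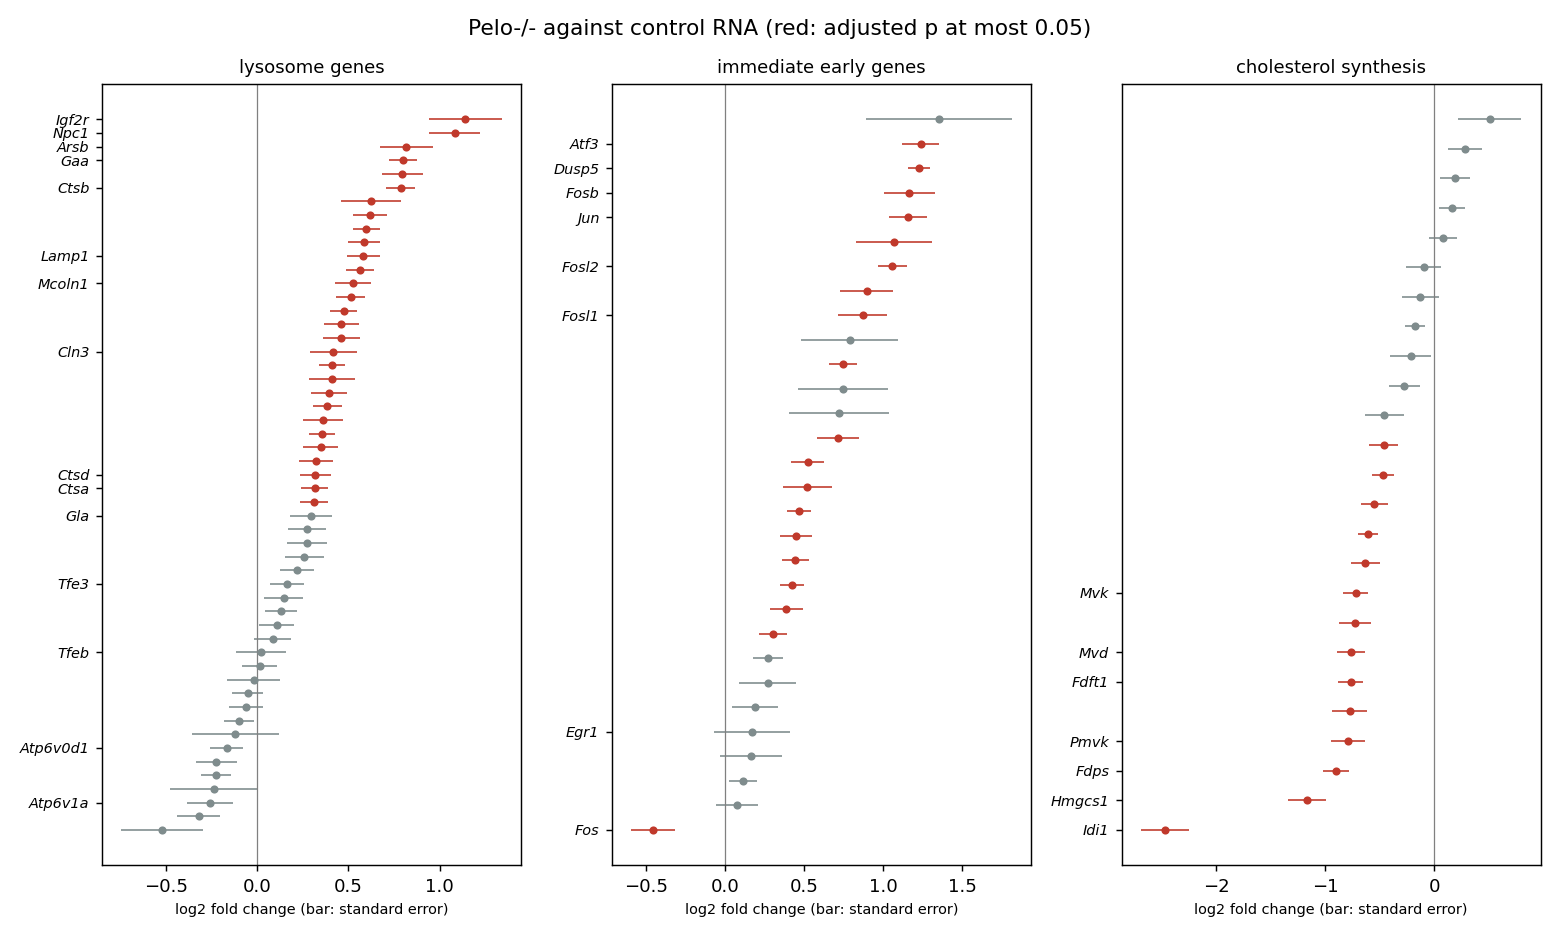
Log2 fold change between Pelo-/- and control RNA for each tested member of the lysosome, immediate early and cholesterol synthesis lists, with standard errors as bars, genes called at an adjusted p of 0.05 in red and labels for genes described in the text. All 29 lysosome genes in red lie above 0 and all 14 cholesterol genes in red lie below it, and Fos is the immediate early gene that fell.

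Immediate early genes, which are transcribed within minutes of a growth factor or stress signal, were mostly higher. Of 30 tested of 30 listed, 18 rose and 1 fell, with a median of 0.52. Dusp5, a phosphatase that restrains ERK in the nucleus, had 149 and 150 CPM in Pelo-/- cells and 62.8, 66.5 and 62.8 in control cells (log2 fold change 1.22, SE 0.070, adjusted p = 0.000399). Jun, a subunit of the AP-1 transcription factor, had 161 and 170 CPM against 70.8, 86.4 and 65.8 (1.16, SE 0.12, adjusted p = 0.00123). Its partners Fosb (1.16), Fosl2 (1.06) and Fosl1 (0.87) and the stress-induced Atf3 (1.24) rose with it.

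Fos itself was at 4.57 and 5.33 CPM in Pelo-/- cells and 6.48, 6.59 and 7.25 in control cells (log2 fold change -0.46, SE 0.14, adjusted p = 0.041), a call that DESeq2 did not make. Egr1 overlapped between the groups (49.3 and 56.5 against 30.4, 55.8 and 54.4 CPM, adjusted p = 0.627). The adjusted fit called 17 members higher and 1 lower. With Pelo-/- library 1 or 2 left out, 11 or 7 rose and 0 fell. These transcripts are of ordinary length (median 2441 bases) and rather high GC content (54.7%).

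Growth factors and their receptors were higher in part. Of 33 listed and tested, 12 rose and 6 fell, with a median of 0.37 (11 and 4 in the adjusted fit), the falls close to the 16.6% of all genes tested. Vegfa, the main angiogenic factor, had 82.2 and 76 CPM in Pelo-/- cells and 25.8, 35.7 and 30 in control cells (log2 fold change 1.37, SE 0.13, adjusted p = 0.00103). The EGF receptor ligands Hbegf (1.02) and Areg (1.56) rose, Hbegf from 140, 154 and 139 to 293 and 292 CPM. Igf1 (-1.23), Hgf (-1.34), Fgf7 (-1.14), Bmp4 (-0.81), Grem1 (-0.68) and Tgfbr1 (-1.01) fell. Of these, Hgf (adjusted p = 0.0908) and Fgf7 (adjusted p = 0.217) did not pass in the adjusted fit. With Pelo-/- library 1 or 2 left out, 5 or 4 members rose and 4 or 2 fell.

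Matrix genes were often higher, with exceptions. Of 43 elastic fibre and matricellular genes, 16 rose and 3 fell, with a median of 0.41 (12 and 3 in the adjusted fit, median 0.20). Fn1, the adhesive glycoprotein fibronectin, had 5930 and 6414 CPM in Pelo-/- cells and 1688, 3115 and 2612 in control cells (log2 fold change 1.32, SE 0.23, adjusted p = 0.00616). Tnc (1.55), Ltbp4 (1.08), Loxl2 (1.02) and Ccn2 (0.90) rose, and the small leucine-rich proteins Aspn (-2.08) and Ogn (-1.99) and the secreted Ccn5 (-1.39) fell. Aspn did not pass in the adjusted fit (adjusted p = 0.0767), where Fmod (-0.88) was lower. The members that rose were 10 or 9 without Pelo-/- library 1 or 2. Of 35 collagens tested of 38 listed, 9 rose and 1 fell, but the adjusted fit called 2 higher (Col4a1 and Col4a2, of the basement membrane) and 3 lower, and without Pelo-/- library 1 or 2 it was 3 or 2 that rose. The collagen transcripts are long (median 4820 bases) and rich in GC (56.7%). Of 17 integrins tested of 18, 6 rose and 0 fell (0 at an unadjusted p below 0.05 and 0 with DESeq2), led by Itga5, a fibronectin receptor subunit (1.11, from 403, 481 and 438 to 952 and 951 CPM). Of the integrins, 4 were higher in the adjusted fit, and 5 or 3 rose without Pelo-/- library 1 or 2.

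Cholesterol synthesis was lower. Of 25 genes listed and tested, 14 fell and 0 rose (0 at an unadjusted p below 0.05 and 0 with DESeq2), with a median of -0.47. Idi1, which isomerises isopentenyl diphosphate, had 8.38 and 5.42 CPM in Pelo-/- cells and 31.7, 43.2 and 40.5 in control cells (log2 fold change -2.47, SE 0.22, adjusted p = 0.000878). Hmgcs1, which makes HMG-CoA, had 38.6 and 34.6 against 63.9, 96.9 and 85.7 CPM (-1.17, SE 0.17, adjusted p = 0.00377). Further enzymes that fell were Fdps (-0.90), Pmvk (-0.79), Fdft1 (-0.77), Mvd (-0.76) and Mvk (-0.72). The adjusted fit again called 14 lower and 0 higher, with a median of -0.49. With either Pelo-/- library left out, 8 fell.

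Genes of cell division were lower in part. Of 46 mitosis genes, 17 fell and 0 rose (2 at an unadjusted p below 0.05 and 2 with DESeq2), with a median of -0.22. Nusap1, which bundles spindle microtubules, had 3.84 and 3.55 CPM in Pelo-/- cells and 11.6, 13.2 and 15.4 in control cells (log2 fold change -1.86, SE 0.16, adjusted p = 0.000814). The checkpoint kinases Bub1 (-1.66) and Ttk (-1.59) and the motor Kif11 (-1.40) fell, while Aurka (0.14) and Foxm1 (0.47) did not pass. The adjusted fit called 14 lower. Of 47 DNA replication genes, 15 fell and 2 rose (9 and 1 in the adjusted fit). Ccne2, a cyclin of the G1/S transition, had 4.57 and 3.38 CPM against 16.2, 19.3 and 19.6 (-2.20, SE 0.17, adjusted p = 0.000718), whereas the licensing factor Cdt1 rose by 0.49. The mitosis genes that fell were 13 or 12, and the replication genes 6 or 8, without Pelo-/- library 1 or 2.

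Stress pathways gave calls in both directions, in part at the share of all genes. Of 34 genes tested of 35 of the integrated stress response and its effector ATF4, 6 rose and 8 fell (7 and 11 in the adjusted fit), the rises close to the 15.5% of all genes tested. Atf3 (1.24), Gdf15 (0.84) and Ppp1r15a (0.72) rose, Nupr1 (-1.20), Chac1 (-0.59) and the serine synthesis enzyme Psph (-0.51) fell, and Atf4 was at 221 and 233 CPM against 166, 197 and 204 (0.27, adjusted p = 0.0907). With either Pelo-/- library left out, 3 rose and 2 fell. Of 25 tested of 26 genes of the unfolded protein response, 7 rose and 4 fell (7 and 3 in the adjusted fit, and 2 or 3 and 1 without Pelo-/- library 1 or 2), the falls at about the 16.6% of all genes tested. The sensors Ern1 (0.97), Eif2ak3 (0.76) and Atf6 (0.59) rose, and the ER chaperone Hsp90b1 fell (-1.05). Of 33 tested of 34 p53 targets, 6 rose and 6 fell (5 and 5 in the adjusted fit), shares close to the 15.5% and 16.6% of all genes tested. Without Pelo-/- library 1, 4 rose and 4 fell, and without library 2, 1 rose and 2 fell. Cdkn1a, which blocks the cell cycle, had 1190.1 and 1131 CPM against 1287, 1159.5 and 1243 (-0.083, adjusted p = 0.527). The 3 Gadd45 genes gave 0 calls in edgeR, with 0 at an unadjusted p below 0.05 and 0 with DESeq2, and log2 fold changes from -0.064 to 0.23. In the adjusted fit Gadd45g was higher (0.33, adjusted p = 0.0337), and up to 1 of them was called with 1 library left out.

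**Figure D4:**
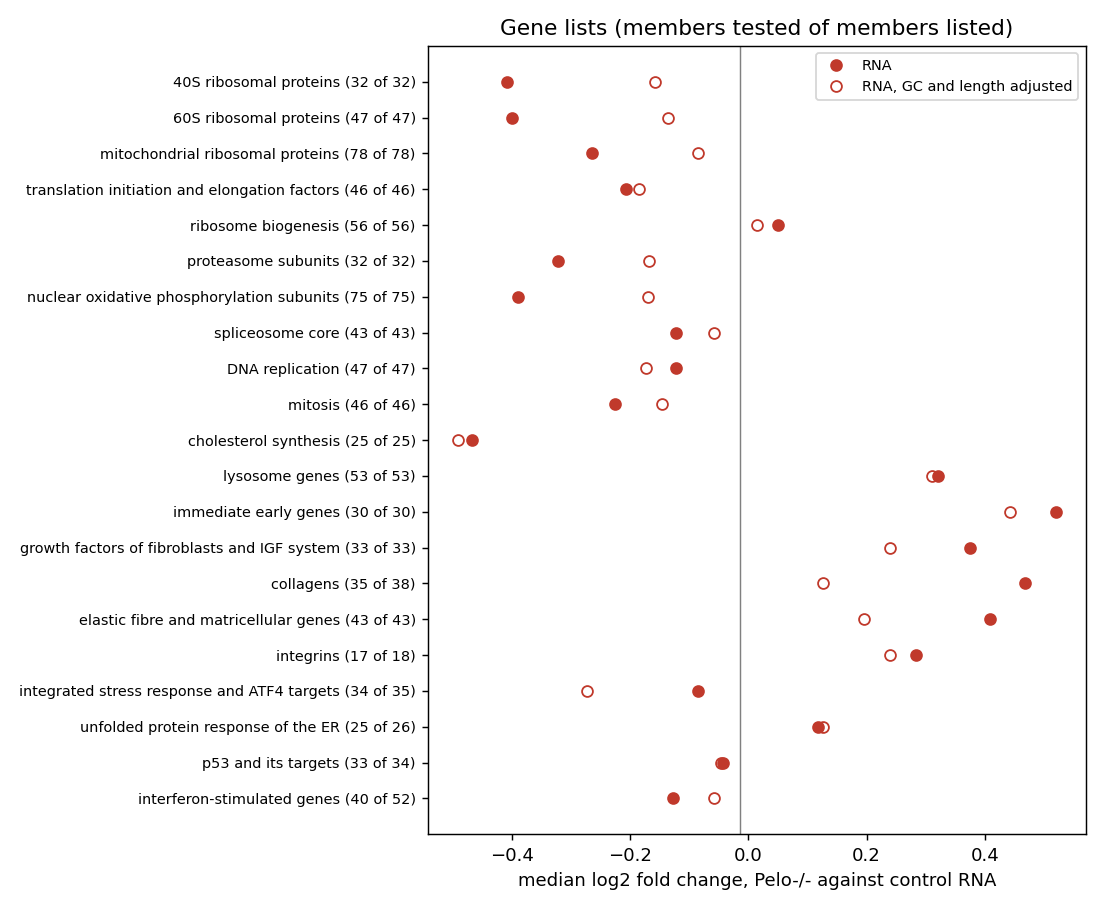
Median log2 fold change between Pelo-/- and control RNA of the tested members of 21 gene lists, from the unadjusted fit (filled) and from the fit with GC content and length taken out (open), with the grey line at the median of all genes tested (-0.014). The medians of the ribosomal protein lists move from -0.40 and -0.41 to -0.13 and -0.16, while those of cholesterol synthesis (-0.47 and -0.49) and of lysosome genes (0.32 and 0.31) stay in place.

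Among the largest rises of protein-coding genes with at least 5 CPM were those of Cldn4, Ccbe1, Stmn4, Inhbb, Adra2a, Tnc, Il11, Gfod1, Sorcs2, Mmp9 and Vegfa. Cldn4, a protein of epithelial tight junctions, had 26.4 and 23.2 CPM in Pelo-/- cells and 6.85, 5.1 and 2.81 in control cells (log2 fold change 2.39, SE 0.31, adjusted p = 0.00257). Ccbe1, a secreted protein of lymphatic growth, rose by 1.89, and Inhbb, a subunit of activin B, by 1.66. Stmn4, a relative of stathmin that binds tubulin, rose by 1.70, the adrenergic receptor gene Adra2a by 1.59 and the cytokine Il11 by 1.49. Mmp9, a collagenase, had 18.4 and 18.9 CPM against 5.79, 8 and 7.45 (1.39, SE 0.14, adjusted p = 0.00126). All 11 kept an adjusted p below 0.05 without any 1 library, and in the adjusted fit, where their log2 fold changes lay between 1.03 for Gfod1 and 2.35 for Cldn4.

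The largest falls were those of Pelo, Cops2, Idi1, mt-Atp6, Scfd1, Emc2, Fkbp3, Apool, Ccne2, Serpinb6b, Cbr2 and Psmc6. Cops2, a subunit of the COP9 signalosome, had 14.7 and 10.7 CPM in Pelo-/- cells and 72.1, 74.4 and 72.9 in control cells (log2 fold change -2.52, SE 0.14, adjusted p = 0.000399). Scfd1, a protein of ER to Golgi traffic (-2.42), and Emc2, of the complex that inserts membrane proteins into the ER (-2.33), also fell. Fkbp3 fell from 54.3, 53.5 and 60.9 to 11.1 and 11.7 CPM (-2.30, SE 0.11, adjusted p = 0.000399).

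Most of these genes are poor in GC, from 36% for mt-Atp6 to 43.8% for Fkbp3, while Pelo is at 57.9% and Cbr2, a carbonyl reductase, at 57%. Cbr2 had 2.93 and 2.69 CPM against 12.7, 12.8 and 13, and its log2 fold change of -2.19 was -2.07 in the adjusted fit. Cops2 was at -1.66 there, Emc2 at -1.38, Apool at -1.19, Ccne2 at -1.36, and mt-Atp6 did not pass (-1.23, adjusted p = 0.0572). Among abundant genes, those of smallest adjusted p were Psmc6, Eloc, Chmp5, Tceal8, Ssb and Dusp5. Ssb, the La protein that binds the ends of new RNA polymerase III transcripts, fell from 90.4, 96.1 and 92.6 to 24.2 and 20.4 CPM (-2.06, and -1.06 in the adjusted fit). Eloc was at -1.71 and, in the adjusted fit, at -0.45, and Chmp5 at -1.31 and -0.74. For Tceal8 the adjusted fit gave -0.21 (adjusted p = 0.0862) against -1.22.

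Calls by transcript were few. Of 34903 transcripts tested, 826 (2.37%) differed, 252 higher (0.722%) and 574 lower (1.64%). By type, 243 protein-coding transcripts rose and 517 fell of 24894 tested. Of 2165 transcripts annotated as NMD targets, 3 rose and 18 fell, and of 4015 with a retained intron 2 rose and 14 fell. The median log2 fold change was -0.018 for NMD transcripts and 0.040 for retained introns, against -0.023 over all types. By abundance, NMD transcripts made up 1.82% and 1.69% of the TPM of the Pelo-/- libraries and 1.78%, 1.81% and 2.06% of the control libraries, so that the groups overlapped. No transcript passed when any 1 of the 5 libraries was left out (0 calls in each case, with 4663 to 6676 at an unadjusted p below 0.05), while DESeq2 called 4587. The split of reads between the transcripts of a gene is itself an estimate, and its error is not in these tests.

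The Pelo-/- libraries were also compared directly with the RNA of cells without Hbs1l, the partner of Pelo, and with the libraries labelled Upf2. These cells are labelled CAG-Cre ER; Hbs1l cKO and CAG-Cre ER; Upf2 cKO, with the strain, tamoxifen treatment and batch of the others. In the latter, Upf2 was higher than in control cells (63, 43 and 30 CPM against 15.7, 21.4 and 16.7, scaled over the 11 RNA libraries). These libraries are therefore called by their label throughout. The Upf2 values count whole transcripts, and the paper reports that NMD transcripts accumulated in its Upf2-/- cells. Against these libraries, 11 of 18 snoRNA host genes and 3 of 3 Gadd45 genes were lower in Pelo-/- cells (medians -1.92 and -2.20). There 0 of them were higher, and 15.4% of all genes were lower. Against Hbs1l-/- cells, 4 and 0 of them were lower and 0 and 1 higher (medians -0.14 and 0.16). Loss of Upf2 function was not tested. Both comparisons use the same 2 Pelo-/- libraries. Between Pelo-/- and Hbs1l-/- cells (n = 3), 5235 of 14878 genes (35.2%) differed, 2811 higher (18.9%) and 2424 lower (16.3%) in Pelo-/- cells. Against the libraries labelled Upf2 (n = 3), 4482 of 15525 genes (28.9%) differed, 2092 higher (13.5%) and 2390 lower (15.4%). Without Pelo-/- library 1 or 2, these counts were 2375 or 1944 against Hbs1l-/- cells and 1884 or 1460 against the libraries labelled Upf2.

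Markers of cell types differed as well, and their part in the results below was not tested. Against Hbs1l-/- cells, 6 of 7 skeletal muscle and 4 of 6 pericyte markers were higher and 0 lower (medians 1.43 and 0.72). Of 7 endothelial markers there, 3 were higher and 3 lower. Against the libraries labelled Upf2, 6 of 12 fibroblast and 3 of 7 cartilage markers were higher and 0 lower (medians 0.39 and 0.63). Lysosome genes were higher in Pelo-/- cells in both comparisons, with 32 of 53 higher and 3 lower against Hbs1l-/- cells (median 0.46) and 20 higher and 1 lower against the libraries labelled Upf2 (median 0.31). Vegfa, Dusp5, Cldn4 and Tnc were also higher than in Hbs1l-/- cells, with adjusted p-values of 0.000244, 0.0003, 0.000402 and 0.0003. Mitosis genes were lower than in Hbs1l-/- cells, with 43 of 46 called (median -0.77), and so were DNA replication genes, with 41 of 47. Against the libraries labelled Upf2, 7 mitosis genes were lower and 1 higher (median -0.14), the falls close to the 15.4% of all genes tested. There 11 DNA replication genes were lower and 1 higher (median -0.090). Against control cells, Mki67, a marker of cycling cells, fell in Pelo-/- cells (log2 fold change -0.99, adjusted p = 0.0292) and did not pass in Hbs1l-/- cells (0.26, adjusted p = 0.391) or in the libraries labelled Upf2 (-0.60, adjusted p = 0.126). These 3 values share the control libraries. Cholesterol genes were lower than in Hbs1l-/- cells (14 of 25 lower, 3 higher), while against the libraries labelled Upf2 8 were higher and 3 lower.

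Interferon-stimulated genes were lower in the Pelo-/- RNA than in the Hbs1l-/- RNA. In that comparison 5 of 10 macrophage and blood cell markers were also lower and 0 higher (median -0.73). Against the libraries labelled Upf2, 2 of these markers were higher and 0 lower. The part of these marker shifts in the interferon-stimulated genes was not tested. Isg15, a ubiquitin-like protein induced by interferon, scaled over the 11 RNA libraries, was at 2.71 and 1.9 CPM in the Pelo-/- and at 55.5, 80.5 and 39.4 CPM in the Hbs1l-/- libraries, with 2.68, 3.12 and 4.44 CPM in the controls. Of 40 interferon-stimulated genes tested of 52 listed, 38 were lower in Pelo-/- than in Hbs1l-/- cells (median -2.68). Against the libraries labelled Upf2, 21 of 40 were lower and 1 was higher (median -0.90). Against control cells, 6 fell and 0 rose in edgeR (3 at an unadjusted p below 0.05, 0 with DESeq2), among them the RNA sensors Eif2ak2 (-1.28) and Ifih1 (-1.06), with a median of -0.13. That share of falls was no higher than the 16.6% of all genes tested. The adjusted fit called 4 lower and 2 higher, and 1 fell with either Pelo-/- library left out.

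The footprints of Pelo-/- cells (n = 3), ribosome-protected fragments counted on coding sequences, were set beside the RNA. They come from separate libraries with their own control libraries (n = 3), labelled Batch 4 where the RNA is Batch 6, and the labels do not say whether both came from the same cultures. Differences between RNA and footprints and differences between these batches or cultures therefore cannot be told apart. By Ddx3y, control footprint library 3 and Pelo-/- footprint libraries 1 and 2 came from male cells (95.8 to 108 CPM, against at most 0.865 in the others). Control libraries of the same number thus had the same sex in RNA and footprints, and Pelo-/- libraries 2 did not. Of 12557 genes tested, 5551 (44.2%) differed in footprints, 2887 higher (23%) and 2664 lower (21.2%). In the decile of lowest GC content, where the RNA had a median log2 fold change of -0.81, the footprints had -0.088. Pelo footprints fell by 3.78 on the log2 scale.

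The gene groups differed between RNA and footprints, a difference that was not tested here. Counts in footprints are without adjustment for GC content and length, which took the 60S count from 34 higher to 23 higher and 2 lower. Of 52 interferon-stimulated genes, 51 rose in footprints, with a median log2 fold change of 5.37 against -0.13 in RNA. Isg15 footprints were at 555, 444 and 679 CPM in Pelo-/- cells and 8, 4.3 and 12.2 in control cells, where its RNA had 2.71 and 1.91 against 2.62, 3.14 and 4.38 CPM. In the same footprints the 10 macrophage and blood cell markers all rose (median 1.74), with a summed level of 309 to 450 CPM in Pelo-/- and 98.7 to 137 CPM in control libraries, and gave no call in RNA. Of 8 epithelial markers tested there, 5 rose (Cdh1, Epcam, Krt5, Krt8 and Krt14) and Krt18 and Krt19 fell, with a median of 2.69 and a summed level of 102 to 163 against 139 to 193 CPM. Of 12 fibroblast markers, 9 rose and Fn1 fell. The summed level of 5 other marker lists was lower in each Pelo-/- than in each control footprint library. It was 132 to 203 against 532 to 687 CPM for cartilage markers, where Col2a1 (-3.38) and Matn3 fell and Comp and Sox9 rose, 27.8 to 35.9 against 78.6 to 86.6 CPM for endothelial markers, where Emcn (-4.49) and Kdr (-1.46) fell and Cdh5 rose, and 752 to 882 against 1154 to 1278 CPM for pericyte markers, where Rgs5 (-4.01), Mcam (-1.32) and Notch3 (-0.68) fell. For skeletal muscle markers it was 14.3 to 34.3 against 44.7 to 63.4 CPM, and 4 of 7 tested fell. For neural and glial markers it was 78 to 79.5 against 103 to 110.4 CPM, where Tubb3 fell and Sox10 rose. In the same libraries Lrrn4 and Msln rose among mesothelial markers. The part of these marker shifts in the footprint results was not tested. Mitosis genes had 43 of 46 members higher and 0 lower in footprints (median 0.61) and 0 higher and 17 lower in RNA. Ribosomal proteins of the 60S subunit had 34 of 45 higher in footprints (median 0.58) and 31 of 47 lower in RNA. Lysosome genes had 7 higher and 29 lower in footprints (median -0.35) and 29 higher in RNA. For cholesterol synthesis, 0 of 25 rose and 4 fell in footprints, shares below the 23% and 21.2% of all genes tested there, where 14 fell in RNA. Of the genes named for the largest rises in RNA, Inhbb (1.74), Ccbe1 (1.96), Mmp9 (1.15), Vegfa (0.69) and Sorcs2 (0.56) were higher in footprints also, while Stmn4 (-1.09) was lower. Cldn4 (-0.90), Adra2a (0.22), Tnc (0.18), Il11 (0.63) and Gfod1 (0.24) did not pass in footprints. Of the genes named for the largest falls in RNA, Serpinb6b (-1.46), Cbr2 (-0.82), Scfd1 (-0.28) and Fkbp3 (-0.24) were lower in footprints too, as was Pelo (-3.78), and mt-Atp6 was higher (1.24). Cops2 (-0.12), Psmc6 (0.0035), Emc2 (-0.0035), Apool (-0.23), Ccne2 (0.094) and Idi1 (0.33) did not pass in footprints.

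**Figure D5:**
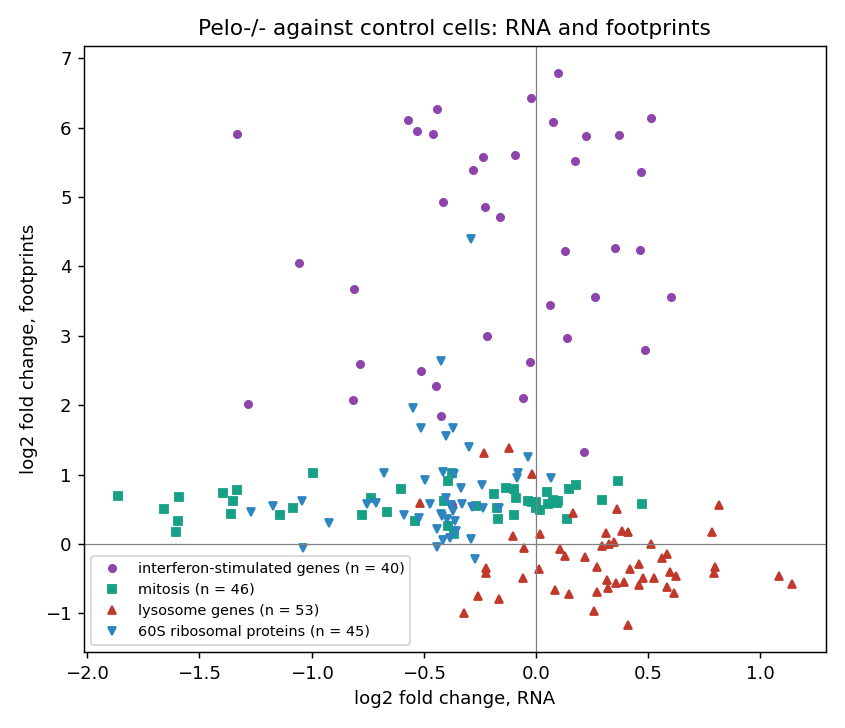
Log2 fold change between Pelo-/- and control cells in RNA (x axis) and in footprints (y axis) for members of 4 gene lists tested in both. Interferon-stimulated genes lie between -1.33 and 0.60 in RNA and all above 0 in footprints, mitosis genes lie above 0 in footprints, and most lysosome genes that are higher in RNA lie below 0 in footprints.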

How the data were processed

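RNA was sequenced from poly(A) RNA with a stranded kit, as paired reads of 100 bases. For each transcript, the authors deposited expected counts (estimated counts) and TPM values, made with kallisto 0.42.4 on the Gencode M24 transcripts. TPM as deposited by the authors is scaled for length and library size, and the counts are not. For footprints, the authors deposited counts of reads on coding sequences, made with HISAT2 2.1.0 on mm10 and featureCounts after removal of non-coding RNA with Bowtie2 2.2.3.

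Here estimated counts were summed per gene, rounded, filtered with edgeR's filterByExpr and tested with edgeR 4.0.16 (TMM factors, quasi-likelihood test, Benjamini-Hochberg adjustment, threshold 0.05) in R 4.3.3, on the libraries of each comparison only. Standard errors were taken as the log2 fold change over the square root of F. The authors tested RNA with sleuth, which was not used here. Alternatives were DESeq2 1.42.0, RLE factors, no filter, 1 fit of all 11 RNA libraries, limma 3.58.1 on log2(TPM + 1), thinning, a replicate block and leaving out each library. GC content and length came from Gencode M21 transcripts (matched for 99.2% of transcripts), weighted by TPM per gene, and were taken out as offsets from smooths (mgcv 1.9.3) of each library's log2 ratio to the control mean, chosen after seeing the data. The fits were tested on simulated data. Each replicate was 1 embryo. The members and gene lists were chosen with earlier results of these data known.

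Genes were named by rule: Pelo, Itga1, Hbs1l and Upf2, the 12 largest rises and falls among protein-coding genes past the threshold with groups not overlapping and a mean of at least 5 CPM, the 6 of smallest adjusted p with at least 50 CPM, and list members. A few genes that the rule names are not reported here. Genes named beside a comparison with footprints or with other mutants (Mki67, Isg15) are list members.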

Additional observations from a re-analysis of the deposited data

Results flagged for a closer look

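Direct comparisons of mutant RNA found differences between the groups of libraries, tested without the control libraries. Differences between genotypes and between cultures or libraries cannot be told apart in these counts. Between Pelo-/- and Hbs1l-/- RNA, 5235 genes had an adjusted p of at most 0.05 in edgeR's quasi-likelihood test, and between Pelo-/- RNA and the libraries labelled Upf2 4482 genes did. Hbs1l-/- library 1 and library 3 labelled Upf2 shared the lower ratio of GC-poor genes with the Pelo-/- libraries, and its part in these counts was not tested. With GC content and length taken out, the counts were 5859 and 5427.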

How the results depend on the processing

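The 4727 genes called between Pelo-/- and control RNA became 2391 with limma on log2(TPM + 1), 2955 with the replicate block and between 1506 and 4802 without 1 library, while DESeq2, RLE factors, no filter, 1 fit of all 11 libraries and thinning stayed within 1.5 times. With GC content and length taken out and 1 library left out, the count lay between 642 and 4002 (1192 and 642 without Pelo-/- library 1 and 2, 2586 and 2655 without control library 2 and 3). The 826 transcripts became 4587 with DESeq2, 175 with GC content and length taken out, 0 with the replicate block and 0 to 0 without 1 library (4663 to 6676 at an unadjusted p below 0.05, and 4851 with the block). Against Hbs1l-/- RNA the 5235 genes became 3030 with the replicate block and 1944 to 6601 without 1 library, and against the libraries labelled Upf2 the 4482 became 1460 to 5624 without 1 library. The causes were not tested. The footprint count stayed within 1.5 times under each alternative.

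The replicate numbers are not known to pair the libraries: deviations of same-numbered Pelo-/- and control libraries correlated at -0.087 and -0.055, so the block says nothing of weaker effects. Over the alternatives chosen at the outset, the genes named for the largest changes or smallest adjusted p kept their direction and their call. Many list members lost theirs without 1 Pelo-/- library. Hbs1l, which did not pass, lay between -0.049 (without Pelo-/- library 2) and 0.22 with 1 library left out, and turned to -0.053 when GC content and length were also taken out without library 2. Itga1, which did not pass, turned to 0.063 with GC content taken out, and to 0.015 with GC content and length taken out without control library 1. Thinning to the smallest library gave 4555 calls.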

Other observations

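Of 20 chemokine and cytokine genes tested of 33 listed, 4 fell and 3 rose, shares close to the 16.6% and 15.5% of all genes tested. With GC content and length taken out 2 were lower and 5 higher, and 3 or 2 fell without Pelo-/- library 1 or 2. Ccl2, which attracts monocytes, had 11.5 and 12.8 CPM in Pelo-/- cells and 22.3, 27.4 and 34.2 in control cells (log2 fold change -1.21, SE 0.19, adjusted p = 0.00442), and Ccl7 (-1.53), Il6 (-1.18) and Cxcl14 (-0.57) also fell. Csf1, a macrophage growth factor, rose from 271, 339 and 301 to 565 and 622 CPM (0.97, SE 0.11, adjusted p = 0.0018), and Lif (0.86) and Il11 (1.49) rose with it. With GC content and length taken out, Ccl2 (-0.38, adjusted p = 0.228) and Il6 (-0.023, adjusted p = 0.961) did not pass, while Csf1, Lif and Il11 did. In footprints Ccl2 was higher in Pelo-/- cells (log2 fold change 3.71).

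Of 29 glycolysis and hypoxia genes, 8 rose and 1 fell (6 and 2 in the adjusted fit), and 3 or 4 rose without Pelo-/- library 1 or 2. The glucose transporter Slc2a1 had 137 and 119 CPM in Pelo-/- cells and 63.2, 73.2 and 68.2 in control cells (log2 fold change 0.91, SE 0.10, adjusted p = 0.00132), and Hk2, which phosphorylates glucose, rose by 0.86. Hif1a, the hypoxia factor, fell by 0.71 on the log2 scale and was at -0.078 in the adjusted fit. Of 37 Hox genes tested of 39 listed, 6 rose and 0 fell in edgeR (1 lower at an unadjusted p below 0.05, 0 with DESeq2), a share close to the 15.5% of all genes, among them Hoxd4 (0.99) and Hoxd8 (0.74). The count was 4 with GC content and length taken out, 2 with the replicate block and 3 or 2 without Pelo-/- library 1 or 2.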
